A study of Homo sapiens with 12 samples.

Results

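The subject is a set of 45 genes that build and regulate the lysosome, the acid compartment in which cells break down proteins, glycans and lipids. The set was fixed by name: membrane proteins, proteases, glycan-degrading enzymes, lipid-handling proteins of the lumen, proton pump subunits and 3 transcription factors. On the arrays, 113 probe sets named 44 of the 45 genes alone. The probe set annotated to GLB1 also carried a second gene name, so GLB1 was not analysed here. Of the 44 genes, 43 passed the filter on low signal and were tested among 12635 genes in all. CTSS, which encodes a protease of antigen-presenting cells, did not pass, and it was above the background controls on 1 of 12 arrays. LAMP3 passed that filter only through its 16 h signal.

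The cells were 22Rv1, a human prostate carcinoma line in long use, and their RNA was read on 12 Affymetrix U133 Plus 2.0 arrays. There were 3 arrays each for vehicle and for 4 h, 6 h and 16 h with a small-molecule inhibitor, named in the series title as directed against the transcription factor ONECUT2. All cells were grown in RPMI-1640 medium with fetal bovine serum and antibiotics. The labels give the vehicle arrays no treatment time, so compound and time in culture cannot be told apart. A code element of unknown meaning, present in all other titles, is missing from those of the 16 h group. Whatever that code marks cannot be told apart from 16 h of treatment. Whether replicate arrays came from different cultures is not stated in the labels, so the p-values rest on array-to-array spread that may be technical. Of 8 prostate luminal markers, the 6 measured here (KLK3, HOXB13, KRT8, KRT18, FOXA1 and EPCAM) were above background controls on all arrays.

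Lysosomal enzymes are made in the endoplasmic reticulum, tagged with mannose 6-phosphate and delivered to a compartment whose membrane is lined by LAMP glycoproteins. A vacuolar proton pump acidifies it: its cytosolic V1 sector splits ATP and its membrane-embedded V0 sector carries protons. The related transcription factors TFEB, TFE3 and MITF bind short E-box elements upstream of many of these genes. LAMP3, also called DC-LAMP, is best known from mature dendritic cells and alveolar type II cells and is otherwise scarce in most tissues.

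The lysosomal genes did not move as a block. LAMP3 went from background to a clear signal at 16 h and TFE3 rose about 3-fold, while 42 members other than LAMP3 had a median log2 change of 0.10, against 0.05 for all tested genes. At 16 h against vehicle 14 of the 43 tested members rose and 5 fell. Over all tested genes 26% rose and 16.8% fell, 42.8% in all, and the members' share of 44.2% was close to that background. Changes of at least 0.5 on the log2 scale were upward for 9 members and downward for 0. Over all genes, 11.3% rose and 5.95% fell by that much. With quantile normalisation the split was 13 up and 8 down. The 5 falls became 2 without vehicle replicate 3, and 3 without vehicle replicate 2, 16 h replicate 1 or 16 h replicate 2. At 4 h and at 6 h 0 members passed the threshold of adjusted p below 0.05 (limma with Benjamini-Hochberg adjustment over 12635 genes), and the share of all genes that passed was 0.459% at 4 h and 0.0317% at 6 h. At an unadjusted p below 0.05 there were 4 members at 4 h and 3 at 6 h, against 10.8% and 8.22% of all genes.

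These are bulk values, so fewer cells with a transcript and less transcript per cell cannot be told apart. The 16 h arrays also differed in some RNA controls. ACTB is read by control probe sets at its 3' and 5' ends, and the 3' log2 signal exceeded the 5' signal by 2.80 ± 0.07 with vehicle and by 4.09 ± 0.09 at 16 h (SD, n = 3 each). The exact two-sided permutation p was 0.1, the smallest 3 against 3 arrays can give. The same difference for GAPDH was -0.46 ± 0.02 with vehicle and -0.43 ± 0.04 at 16 h. The 18S ribosomal RNA control read 8.96 with vehicle, 8.14 at 4 h, 7.84 at 6 h and 10.27 at 16 h (group means). The part of these controls in the results at 16 h was not tested. The 6 h array of replicate 3 had a difference of 3.38, against 2.71 and 2.97 on the other 6 h arrays.

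LAMP3 showed the largest change of any member. Its log2 signal was 1.21, 1.40 and 1.25 on the vehicle arrays, 1.62, 1.58 and 1.80 at 4 h, and 1.72, 1.51 and 1.33 at 6 h. All 9 of these values were below the brightest of the bacterial control probe sets taken as not spiked in, array by array. That status was inferred from their signals near the bottom of the scale and is not stated in the labels. With it, the 9 values give only an upper limit on the transcript. At 16 h the signal was 5.69, 5.74 and 6.08, far above every other array. Against the control level the 16 h signal was at least 13.0-fold higher than vehicle, at least 14.4-fold higher than 4 h and at least 13.5-fold higher than 6 h. On the log2 scale that is at least 3.70 above vehicle (n = 3 per group). The adjusted p of 4.67e-10 (limma) belongs to the measured difference of 4.55, which uses vehicle values below background, and not to this bound. LAMP3 was tested only because of its 16 h signal, so that p is no separate support for the rise. Only 1 probe set on the array reads LAMP3.

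**Figure D1:**
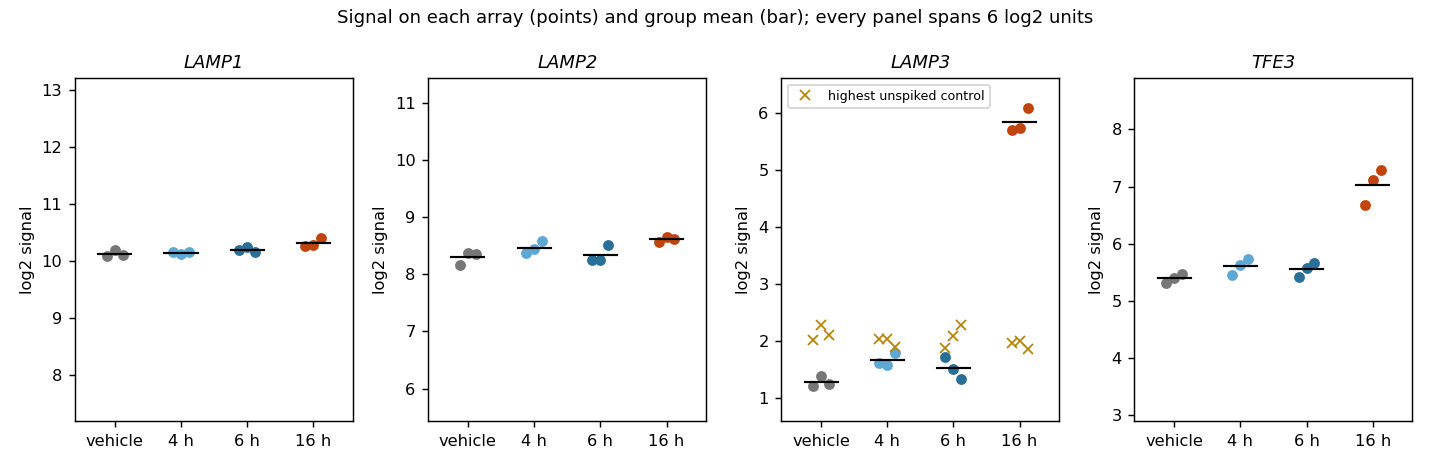
Log2 signal of LAMP1, LAMP2, LAMP3 and TFE3 (vertical axes, each spanning 6 log2 units) on every array of the 4 groups (horizontal axis), with points for arrays, bars for group means of 3 arrays, and, in the LAMP3 panel, crosses for that array's brightest control probe set of RNA not spiked in. LAMP3 lies under the crosses on 9 arrays and between 5.69 and 6.08 at 16 h, TFE3 stands apart at 16 h, and LAMP1 and LAMP2 barely move.

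The other LAMP proteins, which make up much of the lysosomal membrane coat, changed little. LAMP1 signal was 10.10, 10.20 and 10.11 on vehicle arrays, 10.17, 10.13 and 10.16 at 4 h, 10.20, 10.25 and 10.16 at 6 h, and 10.27, 10.29 and 10.41 at 16 h. The 16 h arrays did not overlap with vehicle, and the log2 change was 0.18 ± 0.06 (SE, adjusted p = 0.027). It no longer passed without vehicle replicate 1 (adjusted p = 0.0763), vehicle replicate 3 (0.0711) or 16 h replicate 3 (0.0953), and with median centring of the arrays (0.0594). The mean of its 4 probe sets gave 0.11 (adjusted p = 0.299), and its brightest probe set outside the classes that can bind related transcripts gave 0.09 (0.376). For LAMP2, which also serves chaperone-mediated autophagy, the values were 8.17, 8.38 and 8.37 with vehicle, 8.37, 8.45 and 8.59 at 4 h, 8.25, 8.26 and 8.52 at 6 h, and 8.57, 8.66 and 8.61 at 16 h. The rise at 16 h was 0.31 ± 0.09 (SE, adjusted p = 0.016), lost without vehicle replicate 1 (0.0685) or 16 h replicate 2 (0.0545). LAMP3's log2 change thus exceeded that of TFE3, the next member, by at least 2.06, and all 41 remaining members lay between -0.36 and 0.65.

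No tested marker gene of cells that normally carry LAMP3 passed at 16 h against vehicle. Of 8 dendritic cell markers, 5 (CCR7, CD86, CD1C, ITGAX and CCL22) were at or below the background controls on all arrays of every group. The mean log2 signal of the 8 ranged over arrays from 1.67 to 1.76 with vehicle and from 1.58 to 1.83 at 16 h. Of 4 measured alveolar type II markers, NAPSA, SFTPB and ABCA3 were tested and 0 passed at 16 h, and the mean of the 4 ranged from 3.29 to 3.34 with vehicle and from 3.33 to 3.55 at 16 h. Fibroblast markers did move: of 6 measured, COL1A1 and LUM rose and COL3A1 and DCN fell, and the list's mean went from 2.83 to 2.99 on vehicle arrays to 3.27 to 3.32 at 16 h. Of the 6 measured prostate luminal markers, HOXB13 and FOXA1 fell and KRT18 rose at 16 h (log2 change -1.06, -0.25 and 0.20). KRT8, EPCAM and KLK3 did not pass. The part of the fibroblast and luminal markers in the lysosomal results was not tested.

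Among the transcription factors, TFE3 rose, MITF rose slightly and TFEB did not pass. TFE3 signal was 5.32, 5.40 and 5.46 with vehicle, 5.46, 5.63 and 5.74 at 4 h, and 5.42, 5.57 and 5.65 at 6 h. At 16 h it was 6.68, 7.12 and 7.29, so the 16 h arrays stood above all others. The rise was 3.11-fold against vehicle (log2 change 1.64 ± 0.13 SE, adjusted p = 2.72e-06) and 2.79-fold against 6 h (1.48 ± 0.13, adjusted p = 6.38e-06). A second, dimmer TFE3 probe set gave 0.26 ± 0.11 (adjusted p = 0.0774 over all probe sets), and the mean of the gene's probe sets gave 0.48, a smaller but still passing change (adjusted p = 0.000244).

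MITF, the relative that governs melanocytes and osteoclasts, read 3.76, 4.18 and 3.99 with vehicle, 3.95, 4.01 and 4.18 at 4 h, 3.89, 3.93 and 3.92 at 6 h, and 4.10, 4.41 and 4.61 at 16 h. The 16 h and vehicle arrays overlapped, and the rise of 0.40 ± 0.13 (SE, adjusted p = 0.025) was not firm. It did not pass without vehicle replicate 1 (adjusted p = 0.104), vehicle replicate 3 (0.0525), 16 h replicate 2 (0.0709) or 16 h replicate 3 (0.106), and under quantile normalisation (0.0504). Another MITF probe set fell by 0.40 ± 0.11 (adjusted p = 0.0121 over all probe sets). TFEB, the factor most often studied as the regulator of lysosome formation, read 3.29, 3.38 and 3.58 with vehicle, 3.31, 3.39 and 3.54 at 4 h, 3.28, 3.68 and 3.66 at 6 h, and 3.37, 3.52 and 3.50 at 16 h. The groups overlapped throughout, and the log2 change at 16 h was 0.05 ± 0.11 (SE, adjusted p = 0.762), which turned to -0.06 under quantile normalisation and to -0.02 without vehicle replicate 1.

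MCOLN1, a calcium channel of the lysosomal membrane and a known TFEB target, did not pass. Its signal was 4.32, 4.50 and 4.73 with vehicle, 4.45, 4.49 and 4.71 at 4 h, 4.38, 4.52 and 4.45 at 6 h, and 4.61, 4.68 and 4.93 at 16 h. Vehicle and 16 h arrays overlapped (log2 change 0.22 ± 0.11 SE, adjusted p = 0.15). NPC1, the membrane protein that exports cholesterol from lysosomes, read 6.80, 6.94 and 6.89 with vehicle, 7.02, 6.98 and 6.97 at 4 h, 6.91, 7.21 and 7.04 at 6 h, and 7.18, 7.48 and 7.59 at 16 h. It rose 1.46-fold at 16 h against vehicle (0.54 ± 0.10 SE, adjusted p = 0.0013). NPC2, its soluble partner, had a log2 change of -0.01 ± 0.07. SCARB2, which carries glucocerebrosidase to lysosomes, rose by 0.15 ± 0.06 (adjusted p = 0.046), a call lost without any of the 3 vehicle arrays (adjusted p = 0.0821, 0.0749 and 0.115 for replicates 1, 2 and 3), 16 h replicate 2 (0.156) or 16 h replicate 3 (0.0809), with median centring (0.0978) and with the mean of its probe sets (0.0729). Dimmer SCARB2 probe sets disagreed, with 0.77, 0.22 and -0.44 (limma, adjusted p = 0.000395, 0.397 and 0.0523 over all probe sets). LAPTM4A and LAPTM4B, small membrane proteins with high signals, had changes of 0.08 and 0.07 on their brightest probe sets and did not pass. Dimmer LAPTM4B probe sets gave -0.50, -0.32 and 0.04 (limma, adjusted p = 0.0148, 0.0105 and 0.69 over all probe sets).

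**Figure D2:**
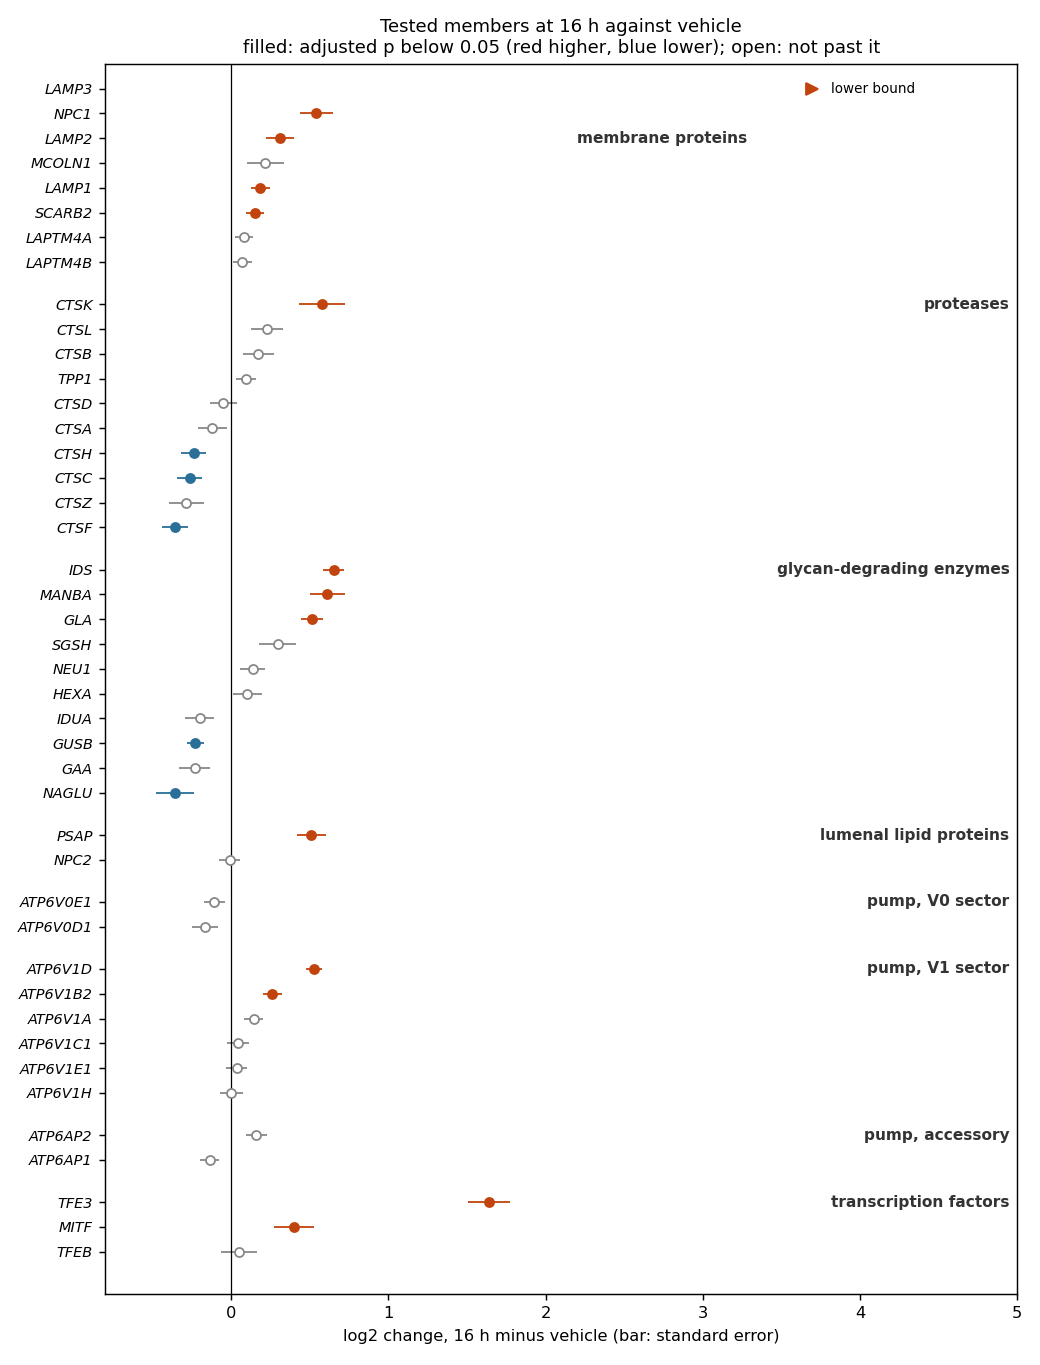
Log2 change of the 43 tested members at 16 h against vehicle (horizontal axis, bars are the model's standard errors), grouped by role (vertical axis), with filled points for adjusted p below 0.05. LAMP3, drawn as a triangle at its lower bound of 3.70, and TFE3 at 1.64 stand apart. The other members lie between -0.36 and 0.65, and filled points lie on both sides of 0 among proteases and glycan-degrading enzymes.

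Of 10 tested glycan-degrading enzymes 3 rose, 2 fell and 5 did not pass the threshold, against 26% risen and 16.8% fallen over all genes. IDS, the iduronate 2-sulfatase of heparan and dermatan sulfate breakdown, read 6.59, 6.71 and 6.81 with vehicle, 6.84, 6.92 and 6.92 at 4 h, 6.85, 6.93 and 6.99 at 6 h, and 7.35, 7.39 and 7.33 at 16 h. All treated arrays were above all vehicle arrays, but only the 16 h difference passed: 0.65 ± 0.07 (SE, adjusted p = 1.79e-05), against 0.19 ± 0.07 at 4 h (adjusted p = 0.33) and 0.22 ± 0.07 at 6 h (adjusted p = 0.359). The early differences turned negative with the mean of the gene's probe sets, to -0.02 at 4 h and -0.08 at 6 h, so no early direction can be given.

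GLA, alpha-galactosidase A, which removes terminal galactose from glycolipids, read 8.48, 8.33 and 8.26 with vehicle, 8.32, 8.25 and 8.38 at 4 h, 8.30, 8.30 and 8.39 at 6 h, and 8.83, 8.86 and 8.91 at 16 h. It rose 1.43-fold (0.51 ± 0.07 SE, adjusted p = 0.000125), with no overlap between the 16 h arrays and any other. MANBA, beta-mannosidase, read 4.74, 4.56 and 4.84 with vehicle, 4.73, 4.72 and 4.73 at 4 h, 4.73, 4.66 and 4.84 at 6 h, and 5.04, 5.43 and 5.50 at 16 h, a rise of 1.53-fold (0.61 ± 0.11 SE, adjusted p = 0.00103). PSAP, the precursor of the saposins that present lipids to these enzymes, read 9.55, 9.46 and 9.44 with vehicle, 9.33, 9.40 and 9.56 at 4 h, 9.50, 9.46 and 9.45 at 6 h, and 9.86, 9.91 and 10.20 at 16 h. PSAP rose 1.42-fold (0.51 ± 0.09 SE, adjusted p = 0.000843), although its other tested probe set had a change of -0.04 ± 0.08.

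The enzymes that fell were NAGLU, an alpha-N-acetylglucosaminidase, by 0.36 ± 0.12 (SE, adjusted p = 0.034), and GUSB, beta-glucuronidase, by 0.23 ± 0.06 (adjusted p = 0.00574). NAGLU no longer passed without vehicle replicate 2 (adjusted p = 0.133), vehicle replicate 3 (0.0839), 16 h replicate 1 (0.0699) or 16 h replicate 2 (0.129). IDUA, alpha-L-iduronidase, had low signals of 2.50, 2.67 and 2.51 with vehicle, 2.83, 2.88 and 3.07 at 4 h, 2.78, 2.87 and 2.94 at 6 h, and 2.44, 2.46 and 2.19 at 16 h. Its differences from vehicle did not pass at any time (adjusted p = 0.156 at 4 h, 0.363 at 6 h and 0.104 at 16 h), but it was lower at 16 h than at 6 h by 0.50 ± 0.09 (SE, adjusted p = 0.0011). Another, dimmer IDUA probe set went the other way without passing. It gave 0.21 at 16 h against 6 h and 0.31 against vehicle (limma, adjusted p = 0.235 and 0.0906 over all probe sets). GAA, HEXA, NEU1 and SGSH did not pass at 16 h against vehicle, with changes from -0.23 for GAA, the glycogen-degrading acid glucosidase, to 0.30 for SGSH, a sulfamidase.

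Of 10 tested proteases 1 rose and 3 fell, against 26% and 16.8% of all genes. CTSK, a collagen-degrading cathepsin known from osteoclasts, read 3.46, 4.04 and 3.31 with vehicle, 3.73, 3.77 and 3.71 at 4 h, 3.93, 3.77 and 3.85 at 6 h, and 4.12, 4.14 and 4.27 at 16 h. It rose by 0.58 ± 0.14 (SE, adjusted p = 0.00702). The vehicle arrays were spread (SD 0.39), and vehicle replicate 2 lay close to the 16 h arrays. Over fits without 1 array the CTSK rise ran from 0.43, which is under 0.5, to 0.80 without vehicle replicate 2. CTSF signal was 6.57, 6.71 and 6.54 with vehicle, 6.54, 6.42 and 6.65 at 4 h, 6.55, 6.63 and 6.81 at 6 h, and 6.25, 6.20 and 6.31 at 16 h, below every other array. This cysteine cathepsin fell by 0.36 ± 0.08 (adjusted p = 0.0051). CTSH, an aminopeptidase, fell by 0.24 ± 0.08 (adjusted p = 0.031), lost without vehicle replicate 2 (0.106), vehicle replicate 3 (0.058) or 16 h replicate 2 (0.125).

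CTSC, the dipeptidyl peptidase that activates granule proteases, fell by 0.26 ± 0.08 on its brightest probe set (adjusted p = 0.017). It no longer passed without vehicle replicate 3 (adjusted p = 0.0696), 16 h replicate 1 (0.0634) or 16 h replicate 2 (0.0511), and the mean of the gene's probe sets gave 0.10. CTSB, one of the most abundant lysosomal cysteine proteases in many cells, had a change of 0.17 ± 0.10 (adjusted p = 0.173) on its brightest probe set, of the class that can bind related transcripts. On its brightest probe set outside that class it fell by 0.77 (adjusted p = 0.000144). CTSA, CTSD, CTSL, CTSZ and TPP1 did not pass, with changes from -0.29 for CTSZ to 0.23 for CTSL.

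**Figure D3:**
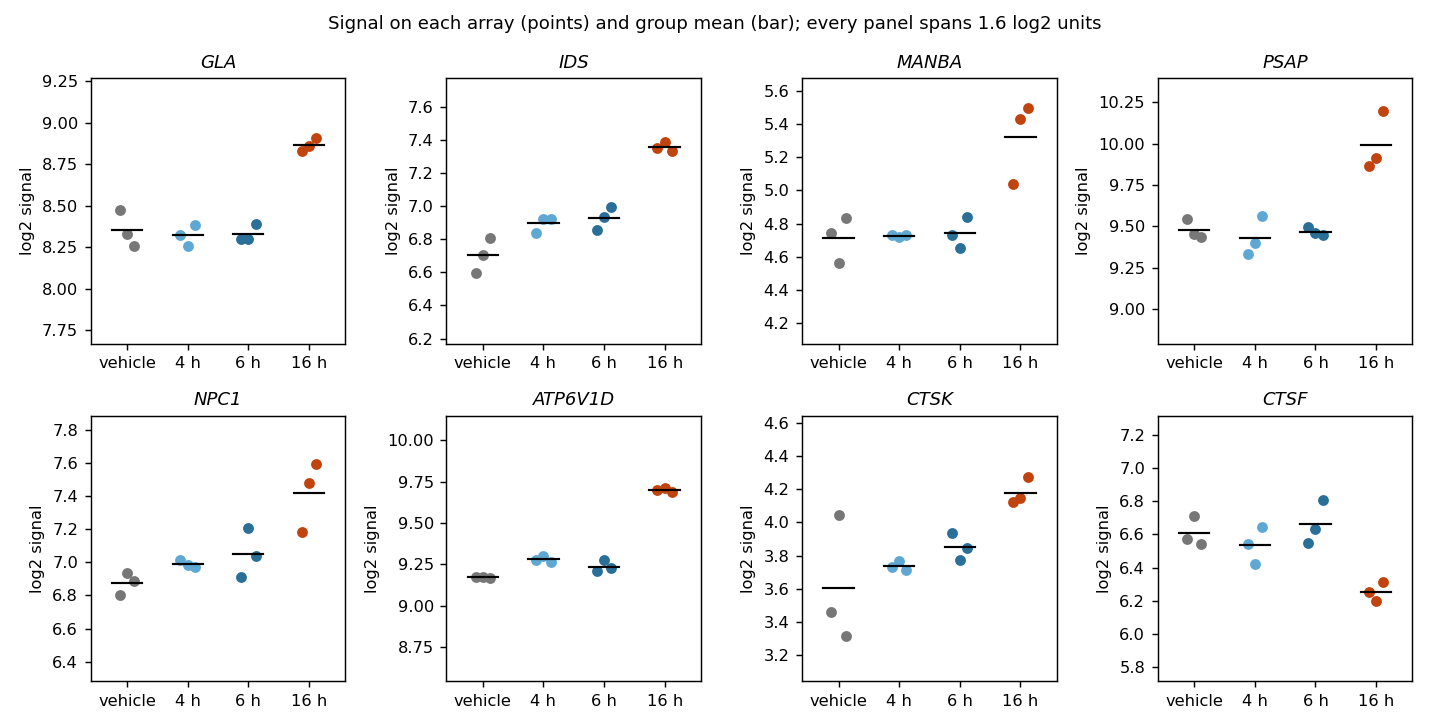
Log2 signal (vertical axes, each spanning 1.6 log2 units) of the 7 members other than LAMP3 and TFE3 that rose by at least 0.5 at 16 h, and of CTSF, on every array of the 4 groups (horizontal axis), with points for arrays and bars for group means of 3 arrays. The 16 h arrays lie above all vehicle arrays for the 7 risen genes and below them for CTSF, and 1 vehicle array of CTSK, at 4.04, lies close to its 16 h arrays.

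Of 6 V1 members of the pump, ATP6V1D and ATP6V1B2 rose and 0 fell, where 26% of all tested genes rose and 16.8% fell. The members of V0 (ATP6V0D1 and ATP6V0E1) and the accessory proteins ATP6AP1 and ATP6AP2 did not pass at 16 h against vehicle. ATP6V1D, a subunit of the central rotor shaft, read 9.17, 9.17 and 9.17 with vehicle, 9.28, 9.30 and 9.26 at 4 h, 9.21, 9.28 and 9.23 at 6 h, and 9.70, 9.71 and 9.69 at 16 h. It rose 1.44-fold (0.53 ± 0.05 SE, adjusted p = 1.01e-05), but the mean of its 4 probe sets gave 0.04 (adjusted p = 0.594). That mean includes dim probe sets with mean signals of 2.61 and 2.17, which gave -0.21 and -0.31. The other bright ATP6V1D probe set (mean signal 8.07) gave 0.18 ± 0.07 (SE, adjusted p = 0.0624 over all probe sets). ATP6V1B2, a subunit of the ATP-splitting ring, rose by 0.26 ± 0.06 (adjusted p = 0.00471). ATP6V1A, ATP6V1C1, ATP6V1E1 and ATP6V1H had changes between 0.00 and 0.14 on their brightest probe sets. Dimmer probe sets of ATP6V1C1 rose, by 0.78 and 0.26 (limma, adjusted p = 0.00107 and 0.0321 over all probe sets). A dimmer one of ATP6V1A gave -0.36 (0.0319) and a dimmer one of ATP6AP2 gave -0.32 (0.00865).

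Pump subunits outside the member list were taken from a list of 14, of which 11 were tested: 0 rose and 5 fell, against 26% and 16.8% of all genes, and all 5 belong to V0. ATP6V0C, which forms the proton-carrying ring, fell 1.32-fold (-0.40 ± 0.08 SE, adjusted p = 0.00154), ATP6V0D2 fell 1.34-fold and ATP6V0A2 fell 1.28-fold. With members included, 0 of 8 tested V0 subunits rose and 5 fell (median log2 change -0.32). Of 11 tested V1 subunits 2 rose and 0 fell (median 0.09). These counts rest on the brightest probe set of each gene. The median over all genes was 0.05, and the further list gave 0 rises and 5 falls with quantile normalisation and with median centring too. The difference between the sectors was not tested.

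Further lysosomal genes also went in both directions at 16 h against vehicle, where 26% of all tested genes rose and 16.8% fell. Of 21 tested hydrolases and activators outside the member list, 5 rose and 2 fell (5 and 4 with quantile normalisation), with a median change of 0.01. SMPD1, acid sphingomyelinase, rose 1.78-fold, GALNS, a sulfatase of keratan sulfate breakdown, 1.53-fold and ASAH1, acid ceramidase, 1.37-fold, while CTSO fell 1.9-fold and FUCA1 fell 1.22-fold. Of 24 further membrane proteins and transporters, 2 rose and 2 fell (1 and 2 with median centring). The chloride transporter gene CLCN7 and its partner OSTM1 rose 1.2-fold and 1.44-fold, and ABCA2 and CLN3 fell 1.68-fold and 1.25-fold.

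Of 15 tested genes that tag enzymes or route them to lysosomes, 1 rose and 5 fell (1 and 7 with quantile normalisation), with a median change of 0.00. The background for this list and the next was 26% risen and 16.8% fallen over all tested genes. M6PR, the cation-dependent mannose 6-phosphate receptor, fell 2.02-fold (-1.01 ± 0.17 SE, adjusted p = 0.00057). CLN6 fell 1.69-fold and AP1M1, a subunit of the AP-1 sorting adaptor, fell 1.66-fold, while the adaptor gene GGA2 rose 1.22-fold. Among 17 tested genes of the complexes that sense nutrients at the lysosomal surface, 5 rose and 3 fell (4 and 5 with quantile normalisation). FLCN and FNIP1, partners in the complex that keeps TFE factors inactive, rose 2.06-fold and 1.77-fold (adjusted p = 0.000194 and 0.000121), and LAMTOR4, a subunit of the Ragulator scaffold, fell 1.5-fold. At 4 h and 6 h, 0 genes of these 5 lists passed, except for 1 rise in the nutrient list at 4 h with quantile normalisation.

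Against 6 h instead of vehicle, 12 members rose and 7 fell at 16 h, where 25.1% of all genes rose and 17.6% fell, 42.7% in all. This comparison shares the 16 h arrays with the one against vehicle. LAMP1, CTSK, CTSC and NAGLU passed against vehicle but not against 6 h, and GAA, IDUA, ATP6V0E1 and ATP6AP1 were lower than at 6 h without passing against vehicle. Leaving out 6 h replicate 1 gave 12 members in place of 19. Between 6 h and 4 h, 0 members passed, against 0.095% of all genes. At an unadjusted p below 0.05 there were 3 members, against 9.39% of all genes.

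Probe sets of the same gene often disagreed. At 16 h, 20 members had several tested probe sets. ATP6V0E1, CTSC and MITF each had probe sets that passed in opposite directions, 3 of 20 members, where 7.39% of all 5913 genes with several tested probe sets did so. For ATP6V0E1 the changes ran from -1.31 ± 0.12 to 0.30 ± 0.06 (SE). Over all 22708 tested probe sets, 41.2% passed at 16 h against vehicle. IDS was more uniform: 4 of its 5 tested probe sets rose, by 0.23 to 1.23, and for LAMP2 3 of 4 rose, by 0.31 to 0.38. Of TPP1's 3 tested probe sets, 1 fell by 0.57 ± 0.10, and of CTSB's 5, 3 fell. The 5' ACTB control signal was lower at 16 h than with vehicle by 1.38, and its part in these disagreements was not tested. At 6 h 1 of 87 tested member probe sets passed, where 0.92% of all tested probe sets did. It was a dimmer one of SCARB2, which fell by 0.81 ± 0.17 (limma, adjusted p = 0.0479 over 22708 probe sets).

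**Figure D4:**
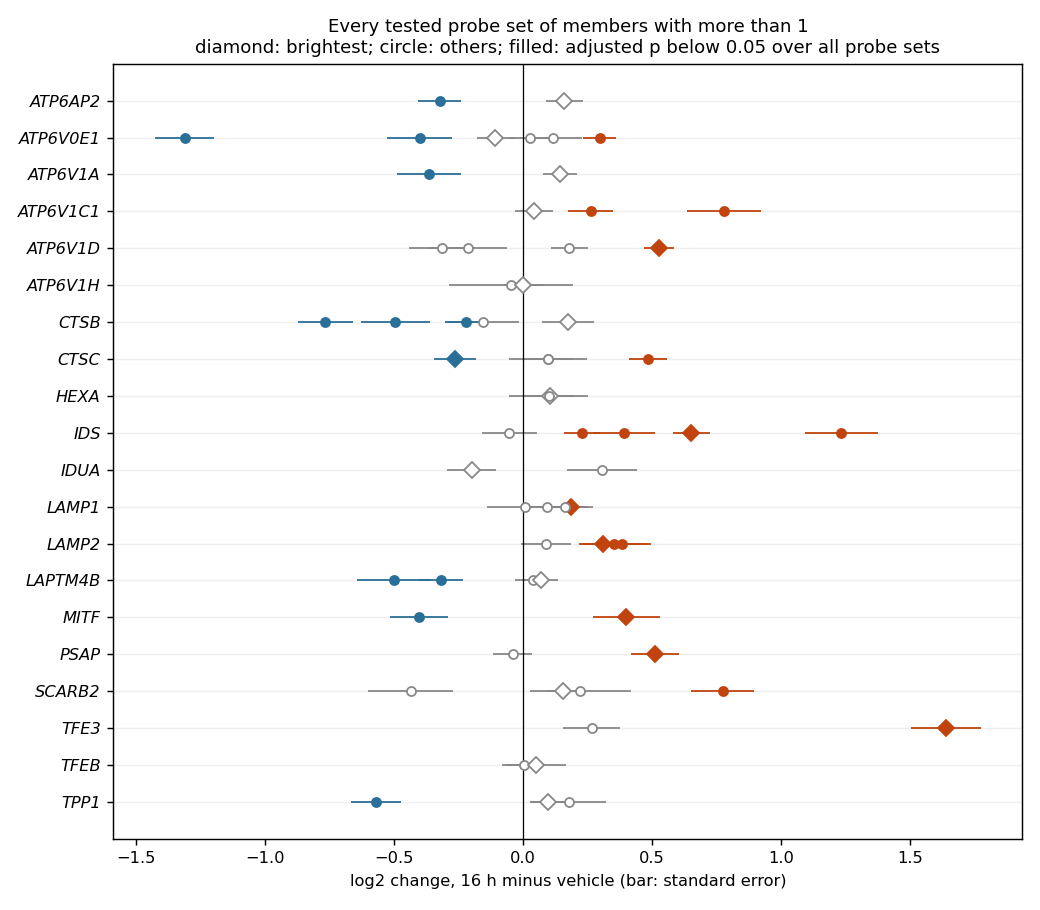
Log2 change at 16 h against vehicle (horizontal axis, bars are standard errors) of every tested probe set of the 20 members that had more than 1 (vertical axis), with diamonds for the brightest probe set of a gene, circles for the others, and filled symbols for adjusted p below 0.05. Filled symbols lie on both sides of 0 for ATP6V0E1, CTSC and MITF, and for IDS and LAMP2 all filled symbols lie above 0.

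Because the TFE factors bind E-box elements, promoters of the members were searched for TCACGTG on both strands. RefSeq (GRCh38.p14) gave 36 promoter entries for 29 of the 45 members, each running from 250 bases before to 50 bases after a gene start. Of the 36, 8 held the motif (22.2%), against 3.71% of all 35116 promoters of the same length. The longer palindrome TCACGTGA, which contains it, was in 5 (13.9%) against 0.98%. The following stretches, 5' to 3' on the gene's strand with TCACGTG or its reverse complement in capitals, are shown because they hold the sites before the start of the 5 genes with the palindrome.

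LAMP1 (chr13:113296989-113297238, + strand): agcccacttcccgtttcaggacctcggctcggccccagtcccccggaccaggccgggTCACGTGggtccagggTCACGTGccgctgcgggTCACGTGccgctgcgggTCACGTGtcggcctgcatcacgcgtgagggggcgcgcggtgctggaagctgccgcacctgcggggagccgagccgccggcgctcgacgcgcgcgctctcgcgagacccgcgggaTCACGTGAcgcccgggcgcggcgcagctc
MCOLN1 (chr19:7522562-7522623, + strand): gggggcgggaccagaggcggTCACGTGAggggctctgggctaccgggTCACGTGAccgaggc
GAA (chr17:80101484-80101576, + strand): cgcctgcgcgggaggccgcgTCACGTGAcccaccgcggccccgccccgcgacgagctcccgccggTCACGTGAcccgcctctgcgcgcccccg
CTSA (chr20:45891272-45891334, + strand): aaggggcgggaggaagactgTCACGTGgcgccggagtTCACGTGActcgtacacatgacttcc
ATP6V0D1 (chr16:67481190-67481237, - strand): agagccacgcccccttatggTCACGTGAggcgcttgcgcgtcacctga

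Before its start LAMP1 held 5 such sites, with further matches across or after the start that are not printed, and MCOLN1, GAA and CTSA held 2 each. The other promoters with TCACGTG were those of CTSD, CTSF and NEU1. Of these 8 genes, LAMP1 rose by 0.18 and CTSF fell by 0.36 at 16 h, and the changes of the remaining 6 lay between -0.23 and 0.22 without passing. Over all tested genes 26% rose and 16.8% fell, and a link between motif and change was not tested. LAMP3 had no promoter entry and was not searched. Among the members that rose by at least 0.5, promoters of TFE3, GLA, IDS, ATP6V1D and NPC1 were searched and held no TCACGTG in this window. A match or its absence describes only these letters in these windows.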

How the data were processed

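Total RNA was labelled by 3' in vitro transcription and hybridised to Affymetrix arrays, per the labels' protocols. The authors deposited log2 signal for 54675 probe sets, made with GCRMA per the submitters' processing notes. A version, genome build and scan dates are not given in the sources used here. Probe sets were named from the platform annotation and updated by Entrez identifier through a RefSeq table: 41097 had 1 symbol, 1801 several and 11777 were not listed. Each gene was represented by its brightest probe set (highest mean over 12 arrays). Genes whose mean there lay under 2.11, the median of all probe sets, were not tested. All 12 arrays entered 1 model per gene with the 4 groups (limma 3.58.1, R 4.3.3; 8 residual and 3.69 prior degrees of freedom, two-sided, Benjamini-Hochberg over 12635 genes). The fit was tested on simulated data. Background is the highest of 27 control probe sets for bacterial RNAs that read near the bottom of the scale. A gene with all arrays of a group below it is compared with it as "at least". For each member, array values were given for LAMP1 to LAMP3, the 3 factors, MCOLN1 and members past 0.5 at 16 h; arrays of IDUA and CTSF were added after their values were seen. The members and lists were chosen with earlier results of these data known. Alternatives were other scalings, filters, probe set rules, priors, a replicate block, fits of the compared groups alone and leaving out each array.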

Additional observations from a re-analysis of the deposited data

Results flagged for a closer look

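The effect of treatment differed between 6 h and 16 h for 19 members, tested as 16 h against 6 h (limma, adjusted p below 0.05, 3 arrays per group), where 42.7% of all genes passed. The log2 difference was positive for LAMP3 (fitted as 4.31, but its 6 h signal was below the background controls, so at least 3.75), TFE3 (1.48), MANBA (0.58), GLA (0.54), PSAP (0.52), ATP6V1D (0.46), MITF (0.46), IDS (0.43), ATP6V1B2 (0.39), NPC1 (0.37), LAMP2 (0.27) and SCARB2 (0.16). It was negative for IDUA (-0.50), CTSF (-0.41), GUSB (-0.33), GAA (-0.31), CTSH (-0.25), ATP6V0E1 (-0.20) and ATP6AP1 (-0.17).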

How the results depend on the processing

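Of the 19 members that passed at 16 h against vehicle, 10 kept direction and call in every alternative run for them (LAMP3, TFE3, IDS, MANBA, CTSK, NPC1, GLA, PSAP, ATP6V1B2 and CTSF). LAMP3, MANBA, CTSK, GLA, ATP6V1B2 and CTSF had only 1 probe set each, so other probe set rules could not change theirs. For these genes the list says nothing on agreement between probe sets. LAMP3 and CTSK lay under the stricter filter on signal, at 4.50, so they had 14 runs against 15 for the others in the list. LAMP3 was tested only because of its 16 h signal, so its place in the list is no separate support for the rise. Averaging all probe sets of each gene reversed CTSC (to 0.10), MITF (-0.11) and CTSB (-0.29). It ended the calls of GUSB (adjusted p = 0.45), ATP6V1D, LAMP1 and SCARB2. It also reversed the early IDS differences (-0.023 at 4 h, -0.083 at 6 h). Averages include dim probe sets: the other one of GUSB was above the background controls on 0 arrays. Preferring probe sets outside the _s_at, _x_at and _a_at classes reversed CTSB (-0.77), ATP6V0E1 against 6 h (0.087) and IDS (-0.025 at 4 h, -0.042 at 6 h). Genes with no other kind, such as CTSF, CTSH, CTSK and PSAP, kept the same probe set in that run. TFEB reversed under quantile normalisation (-0.062) and, over fits without 1 array, ran from -0.016 to 0.13. Leaving out each array gave 14 to 19 members at 16 h against vehicle and 12 to 20 against 6 h. With each probe set tested on its own, an alternative chosen after seeing the data, 1 member passed at 6 h and 26 at 16 h, against 1.55% and 52.3% of all genes. Replicate numbers were not taken to pair the arrays, since not every same-numbered pair correlated above 0.1. Same-numbered arrays of different groups correlated in their deviations at -0.005 to 0.24, above 0.1 for 5 of 18 pairs, and an array correlated best with its own number in 22 of 36 cases, each among 3 candidates. All pairs of replicate 1 were positive (0.094 to 0.24). This is a hint of pairing from the data, not from the design. With the replicate block 22 members passed at 16 h against vehicle and 19 against 6 h; the calls of SCARB2 (adjusted p = 0.0548) and ATP6AP1 against 6 h (0.054) were not reached. The number of arrays limits precision, and signals near the background controls, as for IDUA and LAMP3 before 16 h, carry little information.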
